A study of Ovis aries with 8 samples.

Results

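Aldehyde dehydrogenases oxidise reactive aldehydes to acids with NAD+ or NADP+ as the electron acceptor. Their substrates in muscle include semialdehydes released by the breakdown of amino acids, aldehydes formed when membrane lipids are oxidised, and retinal. Most of the enzymes described here sit in the mitochondrial matrix or at the inner membrane, and the kappa-class glutathione transferase GSTK1, which works in mitochondria and peroxisomes, is described with them. The genes were chosen by name, 9 aldehyde dehydrogenases and *GSTK1*, and 7 of these 10 were found in the count table of 11247 genes. These are *ALDH2*, *ALDH4A1*, *ALDH5A1*, *ALDH6A1*, *ALDH1A1*, *ALDH18A1* and *GSTK1*, and each passed the filter on low counts. *ALDH7A1*, *ALDH9A1* and *ALDH3A2* were named as well and are not analysed here.

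The libraries are poly-A RNA of the longissimus thoracis, a muscle of the back, from 8 castrated Dorper x Santa Inês crossbred lambs. The 4 lambs of the control diet are called CON, and the 4 lambs of the diet that included 20% soybean molasses, a syrup rich in sugars that is left when soy protein is concentrated, are called SM20. The trial behind them held 20 lambs, 10 on each diet, and was concerned with fat deposition and lipid oxidation in meat, so enzymes that clear lipid aldehydes bear on its question. The labels give no age, day of sampling or sequencing batch. Library totals ran from 8675527 to 11210065 counts, and the 7 genes took 0.169% to 0.268% of them. Summed over the 9 tested muscle markers, among them skeletal actin and creatine kinase, levels reached 95123 to 150606 CPM (counts scaled to library size) in CON and 112452 to 114808 CPM in SM20, so the libraries carry the labelled tissue. Whole muscle was sequenced, and fewer cells of a type and less RNA per cell cannot be told apart.

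Of the 7 genes, *ALDH4A1* and *GSTK1* had the most negative log2 fold changes of SM20 against CON, and *ALDH5A1* had nearly the same mean on both diets. Negative log2 fold changes of SM20 against CON were found for 6 of the 7, with a median of -0.34, against 49.3% negative and a median of 0.01 over the 9779 genes tested. By the quasi-likelihood test of edgeR, 0 of the 7 passed an adjusted p of 0.05, as 0.0511% of all genes did. By the same test an unadjusted p under 0.05 was found for 3 of the 7, and for 1788 of the 9779 genes tested. DESeq2 placed 2 of them, *ALDH4A1* and *GSTK1*, past the threshold as lower, as it did 2.69% of the genes to which it gave an adjusted p. The diets did not overlap for those same 2 genes, both lower in SM20, a pattern shown by 5.67% of all tested genes. The genes were picked with earlier results of this same comparison known, so these values describe them and nothing is read from the counts.

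*ALDH4A1* encodes the mitochondrial dehydrogenase that turns pyrroline-5-carboxylate (P5C) into glutamate, the second step of proline breakdown. Its levels, scaled by the TMM method, were 192, 242, 200.4 and 249 CPM in CON lambs 1 to 4. They were 153, 129.6, 116 and 117 CPM in SM20 lambs 1 to 4. All 4 SM20 lambs lay below all 4 CON lambs, and the means were 221 ± 28.7 and 129 ± 17.3 CPM (SD, n = 4 each). The log2 fold change was -0.77 ± 0.14 (SE), or 0.585 times the CON level. Between 1025 and 2498 reads per library stand behind these values, so counting error is small beside the spread between lambs. Over the 8 settings that each left out 1 lamb the log2 fold change stayed between -0.87 and -0.72.

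*ALDH18A1* encodes P5C synthase, which makes P5C from glutamate and so works in the opposite direction to ALDH4A1. CON lambs 1 to 4 had 19.2, 27.3, 34.5 and 14.7 CPM, and SM20 lambs 1 to 4 had 19.0, 17.5, 20.4 and 18.9 CPM. The CON lambs spread to both sides of the SM20 lambs, which lay close together, with a coefficient of variation of 36.5% in CON and 6.09% in SM20. The log2 fold change of -0.34 ± 0.23 (SE) is about as uncertain as it is large, and it moved to -0.11 without CON lamb 3 and to -0.52 without CON lamb 4. Of the other genes that make or use P5C, proline and glutamate, 8 were tested, of which 0 passed by edgeR and 0 by DESeq2. Their median log2 fold change was -0.12, with 5 negative, and it ran from -0.22 without SM20 lamb 2 to -0.05 without CON lamb 2. *GLUD1*, glutamate dehydrogenase, had -0.24 ± 0.14 (SE) and *GOT1*, the cytosolic aspartate aminotransferase, -0.38 ± 0.22. *OAT*, which makes P5C from ornithine, had 0.13 ± 0.15, and *PYCR1*, which reduces P5C to proline, 0.10 ± 0.31.

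*ALDH6A1* encodes methylmalonate semialdehyde dehydrogenase, a CoA-dependent enzyme of valine and thymine breakdown. Its level ran from 55.6 to 79.6 CPM in CON and from 49.1 to 67.9 CPM in SM20, so the diets overlapped. The diet means were 67.0 ± 10.5 and 58.3 ± 7.75 CPM (SD, n = 4 each), a log2 fold change of -0.20 ± 0.15 (SE). Of 19 other tested genes of branched-chain amino acid breakdown, 16 were negative, with a median of -0.29, or -0.18 without CON lamb 1. None of these genes passed by edgeR or DESeq2. The diets did not overlap for 1 of the 19, lower in SM20, a pattern shown by 5.67% of all tested genes, so nothing is read from this count. That gene was *HSD17B10*, a dehydrogenase of isoleucine breakdown, with 83.9 ± 7.21 CPM in the CON and 60.7 ± 10.2 CPM in the SM20 lambs (log2 fold change -0.47 ± 0.14, SE). *AUH*, an enzyme of leucine breakdown, had -0.38 ± 0.13. In the RefSeq annotation of ARS-UI_Ramb_v3.0, used for neighbours only, the span of *ALDH6A1* overlaps that of *BBOF1*. It is not known whether the counting kept the strands apart, but *BBOF1* had 5 to 17 counts per library against 494 to 829 for *ALDH6A1*.

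*ALDH5A1* encodes succinic semialdehyde dehydrogenase, which completes the breakdown of GABA to succinate. It had 217, 242, 247 and 118 CPM in CON lambs 1 to 4. In SM20 lambs 1 to 4 it had 239, 282, 115 and 196 CPM. CON lamb 4 and SM20 lamb 3 had levels near each other and lower than the other 6 lambs, so the spread within each diet was wide, with coefficients of variation of 29.1% in CON and 34.2% in SM20. The means were 206 ± 59.9 and 208 ± 71.2 CPM (SD, n = 4 each), and the log2 fold change was 0.01 ± 0.28 (SE), which takes the other sign under several settings. An interval of this width does not show that the diets had equal levels. In the RefSeq annotation the span of the gene overlaps a long non-coding RNA and a pseudogene. The spans of *ALDH2* and *ALDH18A1* each overlap a long non-coding RNA as well, and none of these neighbours is analysed here. The list drawn up around *ALDH5A1* also held *SUCLG1*, a subunit of succinyl-CoA ligase, an enzyme of the tricarboxylic acid cycle. *SUCLG1* is counted among the matrix enzymes below as well. Its log2 fold change was -0.46 ± 0.13 (SE), with no overlap between the diets, and it passed as lower by DESeq2 alone. *ABAT*, GABA transaminase, had -0.40 ± 0.45 at 5.37 ± 2.99 CPM in CON.

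*ALDH2* encodes the mitochondrial enzyme known for clearing acetaldehyde and 4-hydroxynonenal, a product of lipid peroxidation. CON lambs 1 to 4 had 1941, 1648, 1748 and 1407 CPM. SM20 lambs 1 to 4 had 1255, 1531, 1219 and 1251 CPM. The groups overlapped through CON lamb 4, which was the lowest of its diet, and SM20 lamb 2, which was the highest of its diet, while 3 of the 4 SM20 lambs lay below every CON lamb. The means were 1686 ± 222 and 1314 ± 146 CPM (SD, n = 4 each), with a log2 fold change of -0.36 ± 0.14 (SE), or 0.779 times the CON level. With 10772 to 18208 reads per library it is the most deeply counted of the 7 genes, so counting error is small beside the spread between lambs.

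*GSTK1* encodes a glutathione transferase that resembles bacterial thiol-disulphide oxidoreductases more than the cytosolic transferases. It had 21.2, 18.7, 20.8 and 16.8 CPM in CON lambs 1 to 4. The SM20 lambs 1 to 4 had 9.76, 10.8, 15.6 and 10.4 CPM. No SM20 lamb reached the lowest CON lamb, although SM20 lamb 3 came close to it. The means were 19.4 ± 2.04 and 11.7 ± 2.68 CPM (SD, n = 4 each), and the log2 fold change was -0.74 ± 0.18 (SE), or 0.601 times the CON level. Leaving out SM20 lamb 3 gave -0.91, the farthest from 0 of the settings that left out 1 lamb, and leaving out SM20 lamb 1 gave -0.66, the nearest. The gene rests on 104 to 217 reads per library, the fewest of the 7, so counting error adds to the spread between lambs.

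*ALDH1A1* encodes the cytosolic retinal dehydrogenase, which makes retinoic acid. Its levels were 179, 140.3, 107 and 159 CPM in CON lambs 1 to 4 and 118, 137, 112 and 147 CPM in SM20 lambs 1 to 4. The diets overlapped over most of their range, with means of 146 ± 30.5 and 128 ± 16.4 CPM (SD, n = 4 each) and a log2 fold change of -0.19 ± 0.17 (SE). Leaving out CON lamb 1 gave -0.08, and leaving out CON lamb 3 gave -0.31. Among 13 tested genes that bind, form or sense retinoids, 0 passed by either tool, the median was 0.01, and the 2 with the smallest p were the retinoic acid receptor *RARG* (-0.27 ± 0.21, SE) and the retinoid X receptor *RXRG* (0.27 ± 0.25).

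**Figure D1:**
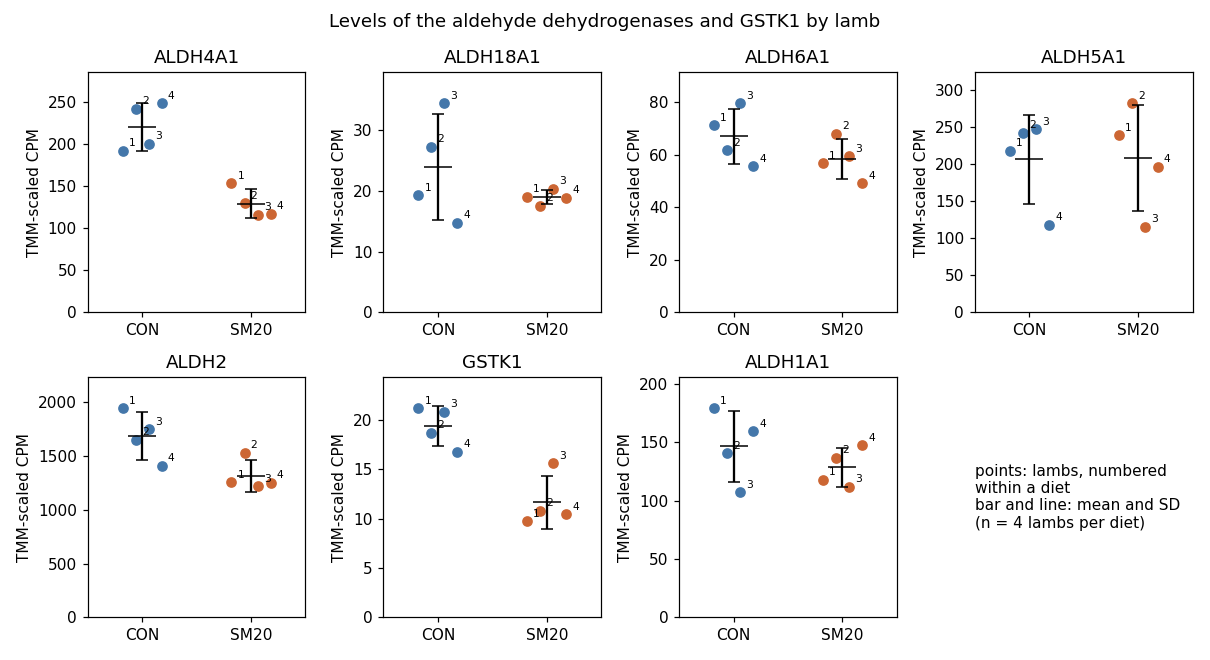
Level of each of the 7 genes in each lamb (y axis, TMM-scaled CPM from 0; points are lambs numbered within a diet, the bar is the mean and the line the SD over 4 lambs). The SM20 lambs lie below all CON lambs for ALDH4A1 (116 to 153 against 192 to 249 CPM) and GSTK1 (9.76 to 15.6 against 16.8 to 21.2 CPM), and the diets overlap for the other 5 genes.

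Other members of the enzyme families were described from lists drawn up by pathway. Of 10 other aldehyde dehydrogenases listed, 6 were in the count table, and these were scarce, with a highest diet mean of 9.46 CPM. Absence from the table does not show that the rest were scarce. *ALDH1A2*, *ALDH3A1* and *ALDH8A1* had at most 19 counts in any library and did not pass the filter, and the 3 that did had a median log2 fold change of 0.04, or -0.17 without SM20 lamb 1. *ALDH1L2*, the mitochondrial formyl-tetrahydrofolate dehydrogenase, had 1.51 ± 0.50 CPM on the CON and 2.78 ± 0.89 CPM on the SM20 diet, and *ALDH1A3*, another retinal dehydrogenase, 3.85 ± 0.77 and 3.96 ± 1.30 CPM. Of 8 tested glutathione transferases and related membrane enzymes other than *GSTK1*, 5 were negative and the median was -0.11, which became 0.06 without CON lamb 2. *GSTZ1*, which acts in tyrosine breakdown, had -0.49 ± 0.21 (SE), and the microsomal *MGST3* had -0.34 ± 0.15.

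Enzymes that reduce aldehydes in place of oxidising them, and those that make and recycle glutathione, were also listed. Of 8 aldehyde and carbonyl reductases 7 were negative, with a median of -0.10, or -0.25 without SM20 lamb 4. The exception was *PTGR2*, a reductase of unsaturated carbonyls, with means of 67.1 ± 7.63 (CON) and 89.0 ± 17.4 CPM (SM20) and no overlap (0.41 ± 0.15, SE). Of the 9779 genes tested, 640 were higher in SM20 without overlap. *DCXR*, dicarbonyl and xylulose reductase, had -0.52 ± 0.31. For glutathione synthesis and recycling, 10 of 15 genes were negative with a median of -0.04, and with scaling by library size alone 7 were. Leaving out CON lamb 2 moved this median to -0.16, and leaving out SM20 lamb 3 to -0.12. *GLRX5*, a mitochondrial glutaredoxin of iron-sulphur cluster assembly, had 72.0 ± 8.66 CPM in CON and 55.2 ± 5.26 CPM in SM20, without overlap (-0.38 ± 0.13, SE), and *GGT5*, a gamma-glutamyl transferase, had -0.73 ± 0.30. The diets did not overlap for 2 of the 15 glutathione genes, *GLRX5* among them, both lower in SM20. That pattern was shown by 5.67% of all tested genes, so nothing is read from this count. In these lists 0 genes passed by edgeR and 0 by DESeq2.

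Further aldehyde sources were covered thinly. For lysine breakdown 4 of 6 genes were negative (median -0.13), and *GCDH*, glutaryl-CoA dehydrogenase, was without overlap with means of 70.8 ± 8.70 (CON) and 48.3 ± 7.49 CPM (SM20; log2 fold change -0.55 ± 0.15, SE). It passed as lower by DESeq2 and not by edgeR, while *DLST*, the succinyltransferase of the oxoglutarate and oxoadipate dehydrogenases, had -0.20 ± 0.12. Among 5 genes of fatty aldehyde and sphingolipid aldehyde formation, *FAR1*, which reduces fatty acyl-CoA to fatty alcohol, had 0.53 ± 0.20 and *PHYH*, the peroxisomal phytanoyl-CoA hydroxylase, -0.58 ± 0.24. Of the carnitine synthesis list only the serine hydroxymethyltransferases were tested, with *SHMT1* at 0.59 ± 0.34 and *SHMT2* at -0.17 ± 0.16.

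The 7 genes, of which *ALDH1A1* encodes a cytosolic enzyme, were set beside 2 lists of mitochondrial proteins. The list of respiratory chain subunits encoded in the nucleus, as used throughout, includes subunits of ATP synthase. The log2 fold change was below 0 for all 55 tested subunits (median -0.45). Of these, 32 passed as lower by DESeq2, against the share of 2.69% over all genes given above, and 0 by edgeR. *NDUFS8* had -0.64 ± 0.12 (SE) and *NDUFV1* -0.84 ± 0.16. Only 1 of the 55 subunits had a more negative value than *ALDH4A1* and 3 had a more negative value than *GSTK1*. By contrast, 41 were more negative than *ALDH2*, 43 than *ALDH18A1*, 53 than *ALDH6A1*, 54 than *ALDH1A1* and 55 than *ALDH5A1*. Of 21 other matrix enzymes, 17 were negative with a median of -0.34, and 9 passed as lower by DESeq2 against 0 by edgeR. The isocitrate dehydrogenases *IDH2* (-0.73 ± 0.15, SE) and *IDH3G* (-0.58 ± 0.13) had the smallest p in that list. Both were nearer to 0 than *ALDH4A1* and *GSTK1*, and so were the other 19, but *IDH2* lay within the SE of *GSTK1* (-0.74 ± 0.18). The 7 genes were picked with earlier results of this same comparison known, so these ranks describe them and nothing is read from the ranks.

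**Figure D2:**
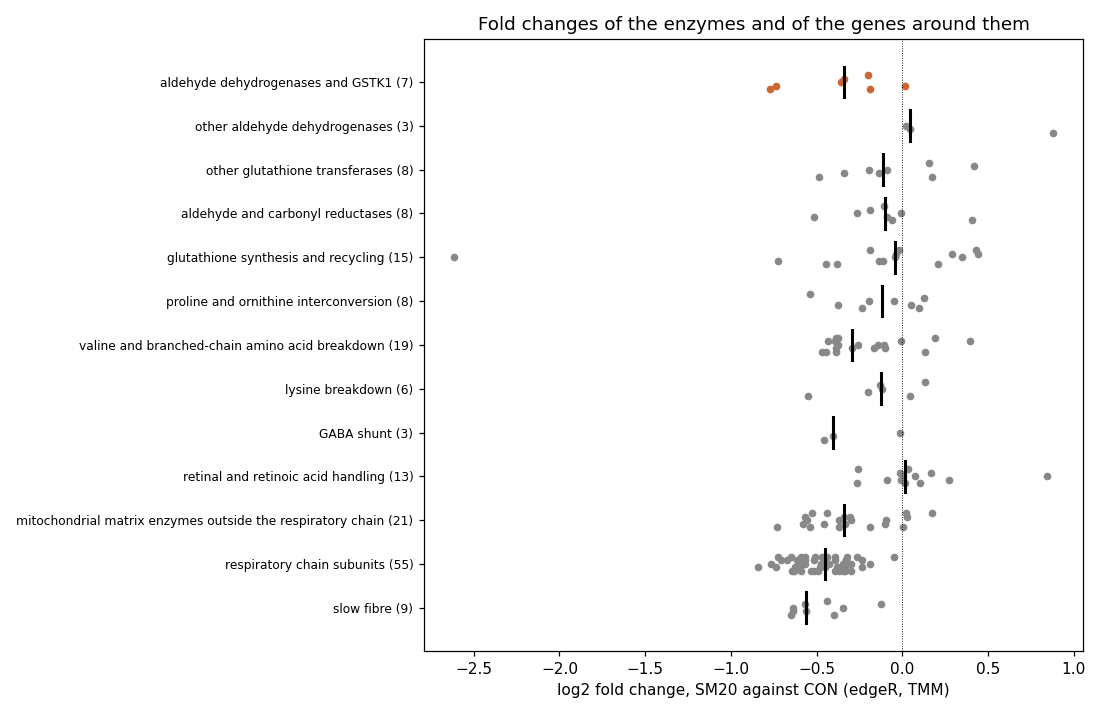
Log2 fold change of SM20 against CON (x axis) for the 7 genes (orange points) and for genes of the lists around them (grey points, number of tested genes in brackets, the black bar is the list median). The 7 genes have a median of -0.34, between that of the respiratory chain subunits (-0.45) and those of the reductases (-0.10) and glutathione genes (-0.04). The far left point is CHAC1.

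Lists for fibre type and for other cells had medians of either sign. The 9 slow-fibre genes were all negative with a median of -0.56, which was -0.18 without CON lamb 1, the lamb with the highest slow-fibre level. Their summed level ran from 10983 to 26356 CPM in CON and from 11354 to 16154 CPM in SM20. The fast-fibre genes had a median of -0.15 with 7 of 8 negative, which was -0.05 without CON lamb 1. Endothelial markers had a median of -0.26 with 8 of 10 negative (498 to 706 CPM in CON, 438 to 646 CPM in SM20), which was -0.16 without CON lamb 1 or CON lamb 4. The adipocyte markers had -0.21 with 7 of 8 negative, or 0.06 without CON lamb 3. The median of the fibroblast markers was 0.09, or -0.18 without SM20 lamb 1 and -0.05 without CON lamb 1. That of the macrophage markers was 0.08, and it was below 0 without CON lamb 3, SM20 lamb 3 (-0.04) or SM20 lamb 4 (-0.05). Smooth muscle and pericyte markers had -0.16 with 7 of 9 negative, which was -0.003 without CON lamb 3 and -0.03 without SM20 lamb 4. Satellite cell markers had 0.31 with 4 of 4 positive, and 0.23 to 0.39 with 1 lamb left out. Their summed level was low, at 18.2 to 27.3 CPM in CON and 23.7 to 30.8 CPM in SM20. The 2 tested blood genes had a median of 0.26. The part of these cells and fibres in the fold changes of the 7 genes was not tested.

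A separate question is how the genes vary among lambs fed alike, which does not use the difference between diets. The mean of each diet was subtracted from the log2 CPM values, and each gene was compared over the 8 lambs with the mean level of the respiratory chain, slow-fibre, adipocyte and fibroblast lists. Of these 28 correlations 1 passed after adjustment, that of *ALDH1A1* with the adipocyte markers, and with scaling by library size alone it did not pass (r = -0.94, exact permutation adjusted p = 0.340). Pearson's r was -0.95 (exact permutation within diets, two-sided p = 0.00174, the smallest the 576 assignments allow, adjusted p = 0.0486) and Spearman's rho was -0.90 (exact permutation p = 0.00347, adjusted p = 0.0972, which misses the threshold). Without CON lambs 1 and 3, the farthest from the median adipocyte level, r was -0.90. In 4 lambs the centred adipocyte level was at or below -0.26 and in the other 4 at or above 0.22, with none between, so the line joins lower and upper lambs of both diets.

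The single markers are the genes averaged into the adipocyte level, so their values of r describe that correlation and add no separate evidence. All 8 had a negative r with *ALDH1A1*, but of unlike size. It was -0.35 for *LIPE*, hormone-sensitive lipase, -0.38 for *LPL* and -0.48 for *PPARG*. The most negative was -0.94 for *PLIN1*, the perilipin that coats fat droplets of adipocytes. *ADIPOQ*, which encodes the fat-cell hormone adiponectin, had 4.98, 19.8, 24.6 and 7.61 CPM in CON lambs 1 to 4, while *ALDH1A1* had its CON maximum in lamb 1 and its minimum in lamb 3. In SM20 lambs 1 to 4 it had 21.3, 16.1, 31.3 and 15.4 CPM, with the highest value in lamb 3, where *ALDH1A1* was lowest for that diet. The points share libraries and scaling, and adipocyte transcripts were scarce, with a summed level of 94.5 to 185 CPM over the 8 lambs. The highest means in that sum were those of *LPL* (59.2 CPM in CON, 41.7 in SM20) and *LIPE* (28.1 and 27.6 CPM). *PLIN1* had only 4.40 and 4.10 CPM.

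*ALDH18A1* had a positive value, with r = 0.86 to the adipocyte level (exact permutation p = 0.0556, adjusted p = 0.697), rho = 0.95 (exact permutation p = 0.0486, adjusted p = 0.425) and r = 0.80 without CON lambs 1 and 3. It did not pass, and 7 of the 8 genes averaged into that level had a positive r with it. The diet-centred log2 level of *ALDH18A1* ran from -0.62 to 0.60 in CON and from -0.11 to 0.10 in SM20. The value of r therefore rests mainly on the CON lambs. Correlations with the respiratory chain level ran from -0.59 for *ALDH18A1* to 0.66 for *ALDH1A1*, and with the slow-fibre level from -0.21 for *ALDH4A1* to 0.52 for *ALDH2*. With the fibroblast level they ran from -0.66 for *ALDH1A1* to 0.62 for *ALDH4A1*. None of these passed. Lambs of one diet with more respiratory chain transcripts did not detectably have more *ALDH4A1* (r = -0.34, exact permutation p = 0.498; rho = -0.14, exact permutation p = 0.759; r = 0.49 without CON lambs 1 and 2) or *GSTK1* (r = -0.03, exact permutation p = 0.931; rho = -0.26, exact permutation p = 0.526; r = -0.69 without the same lambs), each with an adjusted p of 0.988 for r. With 8 lambs only a very close relation could pass.

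**Figure D3:**
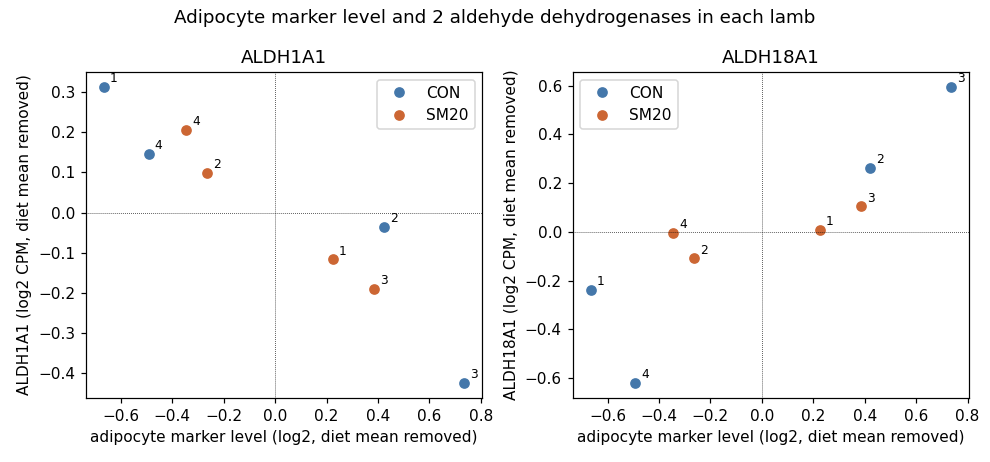
ALDH1A1 (left) and ALDH18A1 (right) in log2 CPM against the mean log2 level of 8 adipocyte markers, each with its diet mean removed (points are lambs, numbered within a diet). ALDH1A1 declines along the adipocyte level (r = -0.95). ALDH18A1 is higher along it (r = 0.86, which did not pass after adjustment), mainly through the CON lambs, as its SM20 levels lie close together.

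Among the 7 genes themselves the lambs did not share 1 order. Of 21 pairs, compared in the same way after the data were seen, 11 had a positive and 10 a negative r, and 0 passed after adjustment (smallest adjusted p = 0.492 by exact permutation, for r). *ALDH2* and *ALDH6A1* had a positive r within diets (r = 0.77, exact permutation p = 0.0677; rho = 0.76, exact permutation p = 0.0451, adjusted p = 0.237; r = 0.72 without CON lamb 1 and SM20 lamb 2). *ALDH4A1* and *GSTK1*, the pair with the most negative fold changes, had a negative one (r = -0.70, exact permutation p = 0.0694; rho = -0.88, exact permutation p = 0.00868, adjusted p = 0.182; r = -0.48 without CON lamb 4 and SM20 lamb 1). In each diet the lamb with the most *ALDH4A1*, CON lamb 4 and SM20 lamb 1, was the one with the least *GSTK1*.

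The genes whose diet-centred levels were most like those of *ALDH4A1* over the 8 lambs, out of 5939 genes with a mean of at least 10 CPM, were *EIF1* (r = 0.99), *CCNL2* (r = 0.93) and *MED15* (r = 0.92). For *GSTK1* they were *SEMA6C* (r = 0.94), *MRPS26* (r = 0.93) and *NOC2L* (r = 0.92), and for *ALDH2* they were *PBXIP1* (r = 0.97), *IPO13* (r = 0.95) and *PCCB* (r = 0.94). *PCCB*, a subunit of the mitochondrial propionyl-CoA carboxylase downstream of valine breakdown, had a log2 fold change of -0.43 ± 0.17 (SE). *MRPS26*, a mitochondrial ribosomal protein, had -0.58 ± 0.14. Values of r this high are the top of a search through many genes with 8 points, and are given as a description.

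**Figure D4:**
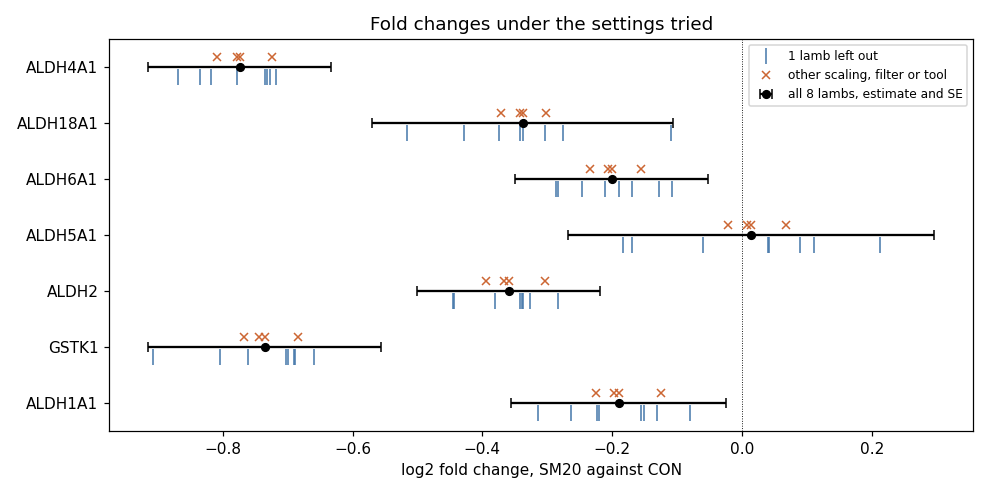
Log2 fold change of SM20 against CON (x axis) for each of the 7 genes with all 8 lambs (black point, line is the SE), with 1 lamb left out (blue ticks) and with another scaling, filter or tool (orange crosses). ALDH4A1 (-0.87 to -0.72) and GSTK1 (-0.91 to -0.66) stay apart from 0, and ALDH5A1 lies on both sides of it (-0.18 to 0.21).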

How the data were processed

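The authors deposited raw read counts by gene symbol, 1 column per lamb for 8 lambs, with no scaling. Trim Galore, cutadapt, STAR, featureCounts and DESeq2 are named in the submitters' processing notes; the sources used here do not give versions, genome build, annotation or strand setting. The kit was TruSeq Stranded mRNA, per the labels' protocols. Diets came from the labels; replicate numbers follow accession order and pair nothing. No coordinates or sequences are printed.

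Counts were tested with edgeR 4.0.16 (R 4.3.3; quasi-likelihood F-test, diet as the only term, TMM, expression filter with a minimum count of 10, two-sided, Benjamini-Hochberg over 9779 genes, threshold 0.05). The 1468 genes left out held 0.0735% of counts. The SE is the log2 fold change divided by the square root of F. DESeq2 1.42.0 was an alternative, with upper-quartile and library-size scaling, no filter, and leaving out each lamb. DESeq2 gave 7101 genes an adjusted p. For correlations a prior count of 2 was added before taking log2 CPM.

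The genes, lists and tests were chosen with earlier results of these data known. All 7 genes are named; of each list, the 2 tested genes with the smallest p where none passed; and the 3 genes most like *ALDH4A1*, *GSTK1* and *ALDH2*. *OAT*, *PYCR1*, *PLIN1*, *ADIPOQ*, *LIPE*, *LPL*, *PPARG* and *CHAC1* were added after their values were seen. For the cell type lists no genes are named by this rule; counts, medians and summed levels are given.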

Additional observations from a re-analysis of the deposited data

Results flagged for a closer look

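In SM20 lamb 2, *ALDH2* reached 1531 CPM, set off from the other 3 SM20 lambs, which had 1219 to 1255 CPM. Its gap to the nearest lamb took a share of 0.884 of the range of the diet, above Dixon's critical value for 4 samples. Chance flags about 1 in 20 groups, and 14 groups were examined. The same lamb had the highest SM20 level of *ALDH5A1* (282 CPM) and *ALDH6A1* (67.9 CPM). Without it the log2 fold change of *ALDH2* was -0.44.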

How the results depend on the processing

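The number of all genes past the threshold, 5 by edgeR (4 higher, 1 lower in SM20), was 1 with upper-quartile scaling (0 higher), 0 without the expression filter and 0 to 0 over the settings that left out 1 lamb, against 446 by DESeq2 (255 higher, 191 lower). Of the 7 genes 0 passed under every edgeR setting and 2 by DESeq2; the cause was not tested. Of the 7, 6 to 7 were negative under all settings, with a median log2 fold change of -0.44 to -0.28. *ALDH5A1* changed sign, to -0.0225 with upper-quartile scaling and, leaving out 1 lamb, to -0.18 (CON 4), -0.06 (SM20 1) and -0.17 (SM20 2), within a range of -0.18 to 0.21; the other 6 genes kept theirs. Scaling moved the median of all genes little (0.01 by TMM, 0.05 by library size, -0.03 by the upper quartile). The 1 correlation past the threshold became 0 with library size alone (*ALDH1A1* with the adipocyte level, r = -0.94, exact permutation adjusted p = 0.340), and 0 to 0 with 1 lamb left out, where 7 lambs allow no adjusted p under 0.194 over 28 pairs; r stayed between -0.99 and -0.92 under all settings. No paired analysis was possible because the labels give no replicate numbers shared between the diets. Depth limits *GSTK1* most, at 104 to 217 reads.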

Other observations

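*CHAC1*, which breaks glutathione down in the cytosol, had the widest spread of the glutathione genes. It had 21.4, 11.5, 0.19 and 0.10 CPM in CON lambs 1 to 4 and 3.38, 1.19, 0.57 and 0.10 CPM in SM20 lambs 1 to 4. The 2 highest values were both from CON lambs and the lowest levels occurred on either diet, so its mean (8.30 ± 10.2 against 1.31 ± 1.45 CPM, SD, n = 4 each) rests on CON lambs 1 and 2.

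*PHYH*, the peroxisomal hydroxylase of phytanic acid, had 591, 356, 278 and 336 CPM in CON lambs 1 to 4 and 226, 254, 206 and 360.0 CPM in SM20 lambs 1 to 4. CON lamb 1 stood highest, and SM20 lamb 4 lay above 3 of the 4 CON lambs.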
